A study of Mus musculus with 40 samples.

Results

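The meiotic arrest and resumption regulators Gpr3, Pde3a, Wee2, Cdc25b, Cdk1, Ccnb1, Ccnb2, Cdc20, Fbxo43 and Mos were examined in fully grown mouse oocytes at the germinal vesicle stage. A member was taken from the RNA table where a transcript locus carried its symbol on the same strand. This found 8 of the 10 genes, each at 1 locus, among 38540 loci in all, of which 15023 carried a gene name on their own strand. Cdc20 and Cdc25b were not found this way. For each, a locus on the right strand covers the whole gene at its RefSeq position (GRCm38.p6), but the table gives that locus the name of a neighbouring gene, Elovl1 for Cdc20 and Spef1 for Cdc25b. Those 2 loci were chosen after the table was seen, their values are given under the name of the regulator, and they stay out of every count of members.

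The study asks what GLP and G9A do in oocytes, the partner enzymes (genes Ehmt1 and Ehmt2) that dimethylate histone H3 at lysine 9 (H3K9me2). Each sample was a pool of 100 to 200 oocytes from mice aged 22 to 25 days, and the animals were either controls, conditional knockouts of G9a alone (G9a cKO) or conditional double knockouts that lack Glp as well (cDKO). RNA was measured in 11 low-input libraries, namely 3 controls of the GKAO title series with 3 G9a cKO of that series, and 3 controls of the GKAQ series with 2 cDKO of that series. H3K9me2 was measured by native chromatin immunoprecipitation in 2 libraries per genotype, and both mutants share the 2 controls. The Cre driver and what the control animals carry are not given in the sources used here. The title numbers GKAO109, GKAO115 and GKAQ55 each cover control and mutant libraries, and whether replicates came from separate animals is not stated, so p-values measure the spread between these pools.

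A fully grown oocyte is held in prophase of meiosis by cyclic AMP. GPR3 is the constitutively active receptor that stimulates cyclic AMP synthesis in the oocyte, protein kinase A then keeps the kinase WEE2 active and the phosphatase CDC25B inactive, and CDK1 bound to cyclin B stays phosphorylated and silent. PDE3A is the phosphodiesterase that degrades cyclic AMP when meiosis resumes. Cyclin B is destroyed by the anaphase-promoting complex (APC/C) with its activator CDC20, EMI2 (encoded by Fbxo43) holds that complex back in the egg, and MOS, a kinase upstream of MAPK, brings about the arrest of the mature egg at metaphase.

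Promoters are shown for the 4 members whose RNA passed a test in at least 1 of the comparisons below, Gpr3, Wee2, Ccnb1 and Ccnb2. They come from RefSeq (GRCm38.p6), run from 250 bases before to 50 bases after the annotated start, and have capitals for CCAAT boxes (CCAAT, or ATTGG for the other strand) and for the cell cycle element known as CHR (TTTGAA or its variant TTTAAA, with TTCAAA for the other strand), which do not overlap each other.
Gpr3: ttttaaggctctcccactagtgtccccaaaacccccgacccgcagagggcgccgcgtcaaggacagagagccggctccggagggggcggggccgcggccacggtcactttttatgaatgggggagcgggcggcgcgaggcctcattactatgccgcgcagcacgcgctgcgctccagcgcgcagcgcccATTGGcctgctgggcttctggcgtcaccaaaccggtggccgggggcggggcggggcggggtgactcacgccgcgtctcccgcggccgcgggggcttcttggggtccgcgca
Wee2: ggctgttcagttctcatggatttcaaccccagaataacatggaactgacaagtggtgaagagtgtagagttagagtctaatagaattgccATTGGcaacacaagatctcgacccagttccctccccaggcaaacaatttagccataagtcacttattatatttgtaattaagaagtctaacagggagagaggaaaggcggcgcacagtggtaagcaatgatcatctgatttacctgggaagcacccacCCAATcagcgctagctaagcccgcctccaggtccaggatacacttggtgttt
Ccnb1: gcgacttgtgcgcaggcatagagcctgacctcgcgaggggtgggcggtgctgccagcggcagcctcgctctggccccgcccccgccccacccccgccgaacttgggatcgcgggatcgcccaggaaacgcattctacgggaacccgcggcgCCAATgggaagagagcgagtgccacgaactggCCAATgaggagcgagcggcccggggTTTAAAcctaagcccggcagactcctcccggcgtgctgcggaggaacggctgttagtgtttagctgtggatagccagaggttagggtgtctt
Ccnb2: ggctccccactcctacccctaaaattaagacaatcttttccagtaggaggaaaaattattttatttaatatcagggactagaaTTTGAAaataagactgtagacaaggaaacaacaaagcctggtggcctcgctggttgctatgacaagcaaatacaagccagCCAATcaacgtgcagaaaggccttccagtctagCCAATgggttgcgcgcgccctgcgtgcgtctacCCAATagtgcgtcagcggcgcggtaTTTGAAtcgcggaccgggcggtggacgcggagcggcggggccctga
The Gpr3 promoter lies at chr4:133212487-133212786 on the minus strand, Wee2 at chr6:40442613-40442912 on the plus strand, Ccnb1 at chr13:100786437-100786736 and Ccnb2 at chr9:70421505-70421804, both on the minus strand. Of 32851 mouse promoters of this length, 37.4% hold a CCAAT box, 11.7% hold at least 2, and 27.6% hold a CHR. Ccnb1 had 2 CCAAT boxes and 1 CHR, and Ccnb2 had 3 and 2. Cdk1 (3 and 2) and Cdc20 (2 and 1), also genes of the dividing cell, held both motifs. Gpr3 had 1 CCAAT box and Wee2 had 2, neither with a CHR in this window, and Cdc25b had 1 CCAAT box and no CHR. The Wee2 promoter had 5 CpG sites and a GC content of 46.0%, against 38 CpG sites and 72.0% for Gpr3 (median over all promoters 7 CpG sites, quartiles 3 and 20). Of the 5 member promoters in the table, Wee2 alone had a match to the binding element of the oocyte factor NOBOX (TAATTA or its variant TAATTG, with CAATTA for the other strand), which 12.4% of promoters hold. The Cdc20 and Cdc25b promoters had none. Pde3a, Fbxo43 and Mos had no promoter in the table. All these promoters follow the annotated start. The measured RNA loci of Gpr3 and Cdk1, both on the minus strand, begin far upstream of it. They begin at 133220793 against an annotated start at 133212536 for Gpr3, and at 69369387 against 69352912 for Cdk1. Which start the oocytes use was not tested.

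The libraries were scaled to totals of 1458868 to 2399680 reads, and values are RPM, the reads of a locus per 1000000 of that total, deposited on the log2 scale. All 8 members exceeded 10 RPM on average, with 64 to 1170 reads per library, so none was near the limit of detection. Oocyte markers (13 of 14 matched) summed to 17993 to 22503 RPM with none at 0, whereas 6 theca and stroma markers summed to at most 5.00 RPM. Ehmt1 was 17.7 to 21.3 RPM in cDKO against 68.3 to 90.5 in its controls, and Ehmt2 had 5 reads in both cDKO libraries against 8 to 30. In G9a cKO, Ehmt2 had 2 to 11 reads against 9 to 13 in controls, and the library labelled G9a cKO replicate 2 lay inside the control range. Whether the Ehmt2 locus covers the deleted part is not given in the sources used here. Fewer oocytes with a transcript and less of it per oocyte cannot be told apart in pools.

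In the G9a cKO oocytes no regulator passed the test. Of the 8 members, 0 were called at an adjusted p under 0.05 (limma, Benjamini-Hochberg over all 38540 loci), beside a background of 1.79% of all loci and 5.22% of the 9091 loci with a mean of at least 10 RPM. Before adjustment 0 had a p under 0.05. The share of all loci at that unadjusted level is not given here, so RNA counts before adjustment have no background, here and below. Their log2 differences ran from -0.26 (Gpr3) to 0.18 (Ccnb2) with a median of -0.05, against 0.01 over those 9091 loci. In the cDKO oocytes 2 of the 8 were called, both lower, Gpr3 and Wee2, beside a background of 6.34% of all loci (15.8% of loci of at least 10 RPM, and 2.02% of all loci called lower). Before adjustment 5 of the 8 had a limma p under 0.05. The member median was 0.08, against 0.05. The effects of both deletions differed at an adjusted p under 0.05 for 0 of the 8 members, with 3 under 0.05 before adjustment. At the adjusted level the background was 1.08% of all loci and 3.34% of loci of at least 10 RPM. The plot of RNA levels by library shows all values, and the plot of log2 differences sets the comparisons side by side.

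**Figure D1:**
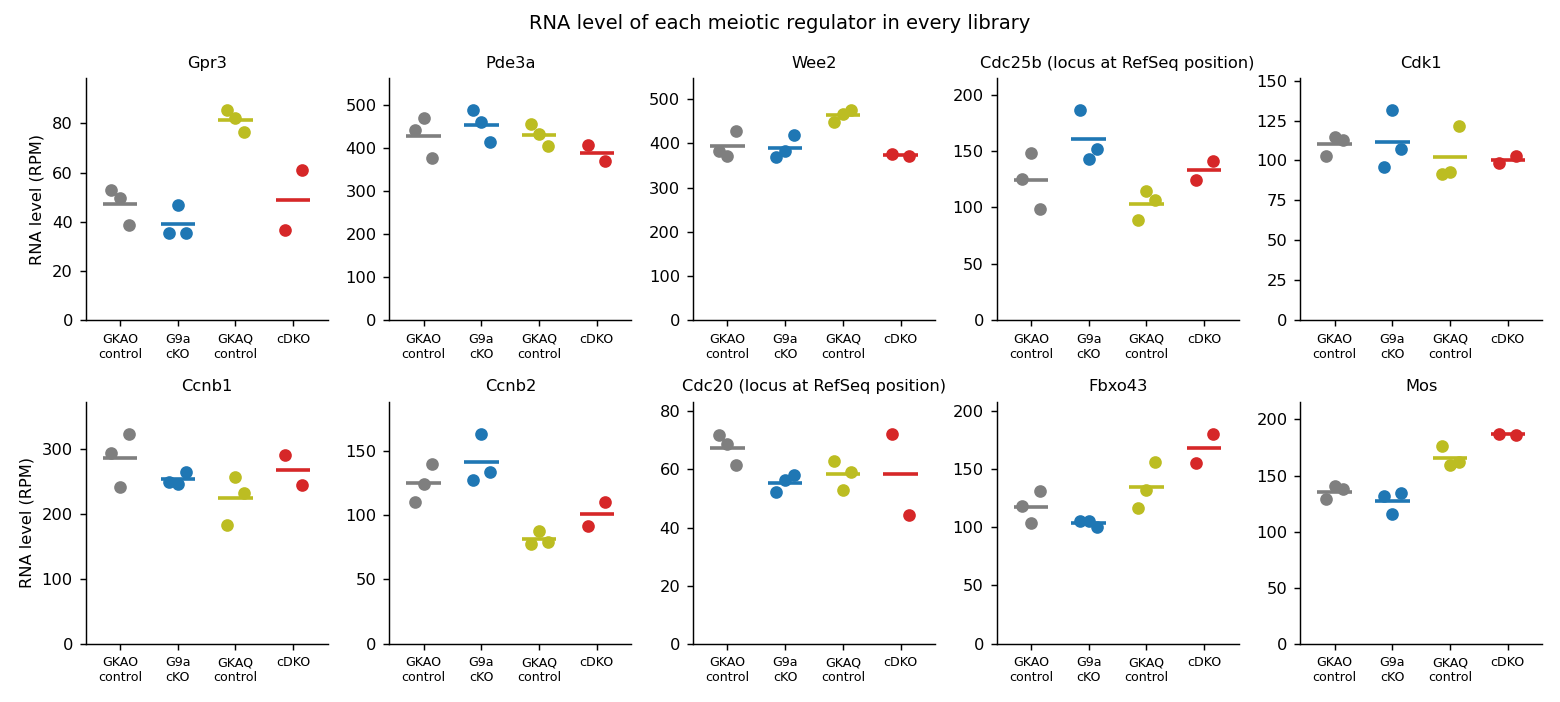
RNA level in RPM (vertical axes, from 0) of each regulator in the 4 groups of oocyte pools; points are libraries and bars are group means. Gpr3 and Wee2 stand highest in the 3 GKAQ controls and lower in both cDKO libraries, while Cdk1 overlaps between all groups.

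**Figure D2:**
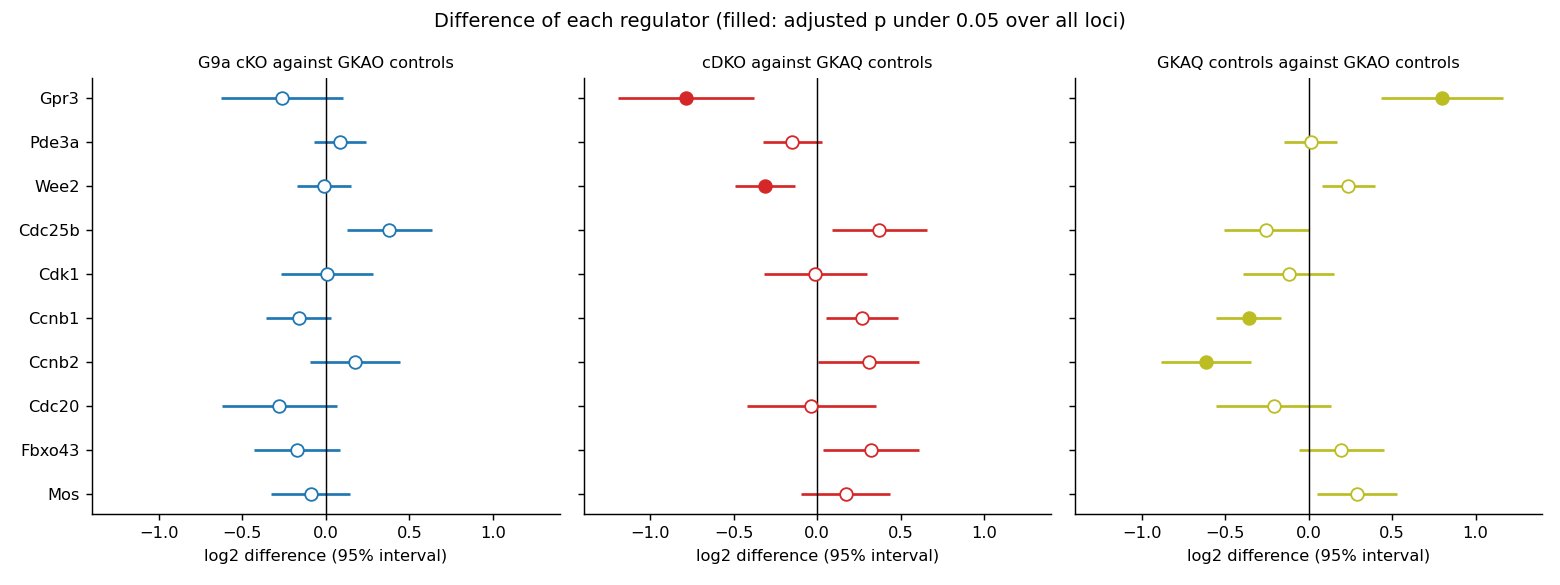
Log2 difference of each regulator in 3 comparisons (horizontal axes), with bars for the 95% interval from limma and filled points for an adjusted p under 0.05. Gpr3 and Wee2 are filled and lower in cDKO, and Gpr3, Ccnb1 and Ccnb2 are filled between the control series.

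Gpr3, the receptor that maintains arrest, had 52.8, 49.8 and 38.7 RPM in the GKAO controls, 35.5, 47.0 and 35.3 in G9a cKO, 85.5, 82.1 and 76.4 in the GKAQ controls, and 36.4 and 61.1 in cDKO. Both cDKO libraries lay below all 3 of their controls, and replicate 1 was the lower. The level fell by 0.78 on the log2 scale (SE 0.21, 95% interval -1.19 to -0.38, limma adjusted p = 0.00523), from 81.3 ± 4.59 RPM (SD, n = 3) to 48.8 ± 17.4 (SD, n = 2). Without cDKO replicate 1 the difference was -0.41 (adjusted p = 0.607), and within GKAQ55, which holds 1 control and 1 cDKO library, it was -0.43. In G9a cKO the difference was -0.26 (interval -0.63 to 0.10, adjusted p = 0.316), and it was -0.53 within GKAO109 and 0.07 within GKAO115. The cDKO levels of Gpr3 thus lay inside the range of the GKAO controls and G9a cKO for replicate 1 and between that range and the GKAQ controls for replicate 2. A locus on the opposite strand overlaps Gpr3 and had 156 to 192 RPM, without the drop seen for Gpr3 in cDKO (192 and 180.2 RPM, against 156 to 191 in the GKAQ controls). The Gpr3 locus (chr4:133209335-133220793, minus strand) extends past the RefSeq gene, which takes up 27.9% of it.

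Pde3a, which acts against GPR3 on cyclic AMP, did not pass the test in either mutant. It had 442, 469 and 376 RPM in the GKAO controls, 488, 459 and 414 in G9a cKO, 456, 433 and 404 in the GKAQ controls, and 406 and 371 in cDKO. The groups overlapped in both comparisons, although the lower cDKO library was the lowest of all 11. The log2 difference was 0.08 in G9a cKO (interval -0.07 to 0.24, limma adjusted p = 0.461) and -0.15 in cDKO (interval -0.33 to 0.03, adjusted p = 0.471). Gpr3 and Pde3a therefore differed in spread as well, since the highest library exceeded the lowest 2.42-fold for Gpr3 and 1.32-fold for Pde3a. Over the 11 libraries the log2 levels of the pair had a Pearson correlation of -0.001.

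Wee2, the oocyte kinase that phosphorylates CDK1 and so blocks it, had 382, 371 and 428 RPM in the GKAO controls, 369.9, 382 and 418 in G9a cKO, 447, 467 and 476 in the GKAQ controls, and 375 and 371 in cDKO. The 2 cDKO libraries lay close together and below all GKAQ controls. In cDKO, Wee2 dropped by 0.31 in log2 RPM (SE 0.09, interval -0.49 to -0.13, limma adjusted p = 0.0150), from 463 ± 14.4 RPM (SD, n = 3) to 373 ± 3.33 (SD, n = 2). The difference was -0.33 within GKAQ55 and -0.34 to -0.29 without any 1 library, but the adjusted p passed 0.05 without cDKO replicate 1 (0.0651), cDKO replicate 2 (0.0818), GKAQ control replicate 2 (0.0639) or GKAQ control replicate 3 (0.0894). In G9a cKO it was -0.01 (interval -0.17 to 0.15, adjusted p = 0.930). The effects of both deletions on Wee2 differed by -0.30 (SE 0.12, adjusted p = 0.169), which did not pass the test. It passed without GKAQ control replicate 1 (adjusted p = 0.0410), a fit that called 38.2% of all loci against 1.08% with every library. Plain moderation ignores the trend of variance with level and outlying variances. With it and with a pseudocount of 1 RPM, the adjusted p in cDKO was 0.366 and 0.0716 for Wee2. For Gpr3 it was 0.165 and 0.143. With title number as a term neither gene was called. That term takes the cDKO effect from GKAQ55 alone, 1 control and 1 cDKO library. Calls in cDKO lost with that term, here and below, therefore say little. The Wee2 locus lies at chr6:40442201-40470864 on the plus strand and covers 78.0% of the RefSeq gene.

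Cdc25b, the phosphatase that removes the phosphate WEE2 places on CDK1, was read from the locus at its RefSeq position (chr2:131185922-131201522, plus strand). It had 125, 148 and 99.0 RPM in the GKAO controls, 187, 143 and 152 in G9a cKO, 88.6, 114.6 and 107 in the GKAQ controls, and 125 and 142 in cDKO. Both cDKO libraries exceeded their 3 controls, and G9a cKO overlapped its controls through 1 control library. The log2 differences were 0.38 in G9a cKO (SE 0.13, interval 0.12 to 0.63, limma adjusted p = 0.122) and 0.37 in cDKO (SE 0.14, interval 0.09 to 0.66, adjusted p = 0.116), so neither was called. Within title numbers the values were 0.45 (GKAO109), 0.57 (GKAO115) and 0.31 (GKAQ55). The G9a cKO value passed the test with title number as a term in the model (0.51, adjusted p = 0.0137) and without GKAO control replicate 2 (0.52, adjusted p = 0.0350).

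Cdk1, the kinase that drives entry into M phase, was not called in either mutant. It had 103, 114.7 and 113 RPM in the GKAO controls, 95.6, 132 and 107 in G9a cKO, 91.8, 92.9 and 122 in the GKAQ controls, and 98.5 and 103 in cDKO. All groups overlapped. The log2 difference was 0.01 in G9a cKO (interval -0.27 to 0.28, limma adjusted p = 0.985) and -0.01 in cDKO (interval -0.32 to 0.30, adjusted p = 0.960). These intervals leave room for changes of about the size seen for Wee2. RefSeq Cdk1 takes up 47.0% of its locus (chr10:69338324-69369387, minus strand).

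The B-type cyclins, the regulatory subunits of CDK1, were not called in either mutant. Ccnb1 (chr13:100778650-100786627, minus strand) had 294, 241 and 323 RPM in the GKAO controls, 249.7, 246 and 265 in G9a cKO, 182, 257 and 232 in the GKAQ controls, and 291 and 244 in cDKO. Its log2 difference was -0.16 in G9a cKO (interval -0.36 to 0.03, limma adjusted p = 0.242) and 0.27 in cDKO (SE 0.11, interval 0.05 to 0.48, adjusted p = 0.153), with overlap in both. The effects of both deletions on Ccnb1 differed by 0.43 (SE 0.15, adjusted p = 0.160), which passed only without cDKO replicate 2 among the alternatives run (0.56, adjusted p = 0.0446). Within GKAQ55 the Ccnb1 difference was -0.08, opposite in sign to the cDKO value over all libraries.

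Ccnb2 (chr9:70407683-70421610, minus strand) had 110.4, 124 and 140.1 RPM in the GKAO controls, 127, 163 and 133 in G9a cKO, 77.3, 87.9 and 78.9 in the GKAQ controls, and 91.7 and 110.3 in cDKO. Both cDKO libraries exceeded all GKAQ controls and lay below the GKAO controls. The log2 difference was 0.18 in G9a cKO (interval -0.09 to 0.44, limma adjusted p = 0.359) and 0.31 in cDKO (interval 0.01 to 0.61, adjusted p = 0.295). A locus on the opposite strand had 0.569 to 0.684 of the reads of Ccnb2 in every library, so its level moved with that of Ccnb2, and whether counting used the strand is not given in the sources used here. Ccnb1 had 1.51 to 3.17 reads for each read of Ccnb2, with the lowest ratio in G9a cKO replicate 2 and the highest in cDKO replicate 1.

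Of the APC/C arm, the regulators Cdc20 and Fbxo43 were not called in either mutant. Cdc20, the activator, was read at chr4:118432901-118437391 (minus strand), a locus that also overlaps Elovl1, so part of its reads may be from that gene. It had 72.0, 68.6 and 61.5 RPM in the GKAO controls, 52.2, 56.3 and 57.9 in G9a cKO, 62.8, 52.9 and 59.1 in the GKAQ controls, and 72.3 and 44.5 in cDKO. The 3 G9a cKO libraries lay below all their controls (log2 difference -0.28, interval -0.62 to 0.07, limma adjusted p = 0.251), where 25.2% of the loci of at least 10 RPM also had groups that did not overlap. The 2 cDKO libraries held the highest and the lowest Cdc20 level of all 11, and the difference was -0.04 (interval -0.42 to 0.35, adjusted p = 0.894).

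Fbxo43, which encodes the APC/C inhibitor EMI2, had 118, 103 and 131 RPM in the GKAO controls, 106, 105 and 99.8 in G9a cKO, 116, 132 and 156 in the GKAQ controls, and 155 and 180.2 in cDKO. Its lowest library was a G9a cKO and its highest a cDKO, though both mutants overlapped their own controls. The log2 differences were -0.17 (interval -0.43 to 0.08, limma adjusted p = 0.338) and 0.32 (SE 0.15, interval 0.04 to 0.61, adjusted p = 0.212). They differed from each other by 0.50 (SE 0.20, adjusted p = 0.169), which did not pass the test. The locus is chr15:36150060-36169839 on the minus strand.

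Mos, the kinase of the metaphase arrest, had 129, 140.4 and 138 RPM in the GKAO controls, 132, 116 and 135 in G9a cKO, 177, 159 and 162 in the GKAQ controls, and 187 and 186 in cDKO. The cDKO libraries exceeded all others, and the GKAQ controls exceeded all GKAO libraries. The log2 difference was -0.09 in G9a cKO (interval -0.33 to 0.15, limma adjusted p = 0.610) and 0.17 in cDKO (interval -0.10 to 0.44, adjusted p = 0.565). The spread of Mos within groups, 0.08 on the log2 scale, did not exceed that of counting alone (0.09), while Gpr3 varied by 0.32 against 0.15 from counting. The Gpr3 value was raised by the 2 cDKO libraries (SD 0.53). Its SD was 0.24 in the GKAO controls, 0.24 in G9a cKO and 0.08 in the GKAQ controls. The Mos locus (chr4:3860066-3874476, minus strand) is an extended transcript of which RefSeq Mos takes up 10.0%. Over the 11 libraries the log2 levels of Mos and Fbxo43 had a Pearson correlation of 0.76, and Mos and Ccnb2 one of -0.77, the most positive and the most negative of the 45 pairs of regulators. These points share library, depth and title series.

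The control series, in which neither gene is deleted, differed in these regulators. GKAQ against GKAO controls gave 3 of 8 members called (background 3.87% of all loci, of which 1.96% higher and 1.91% lower, and 14.8% of loci of at least 10 RPM). Before adjustment 5 of 8 were under 0.05, the same count as in cDKO, with no background at that level. Gpr3 was higher in the GKAQ controls by 0.80 on the log2 scale (SE 0.19, limma adjusted p = 0.00102). Ccnb2 was lower by -0.61 (SE 0.14, adjusted p = 0.000543) and Ccnb1 by -0.36 (SE 0.10, adjusted p = 0.0106). The Ccnb1 call was lost without GKAO control replicate 1 (adjusted p = 0.0706), GKAO control replicate 3 (0.234) or GKAQ control replicate 1 (0.117), and with precision weights on recovered reads (-0.31, adjusted p = 0.332). Wee2 (0.24, adjusted p = 0.0825) and Mos (0.29, adjusted p = 0.236) were not called, and the Wee2 value passed the test in 4 of 18 alternatives, among them those without GKAO control replicate 3 (adjusted p = 0.0296), cDKO replicate 1 (0.0481) or cDKO replicate 2 (0.0490). The calls of all 3 members were lost with plain moderation (adjusted p = 0.211 for Gpr3, 0.187 for Ccnb2 and 0.466 for Ccnb1).

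The members whose groups did not overlap were Gpr3, Wee2, Ccnb2 and Mos in cDKO against GKAQ controls (background 48.6% of loci of at least 10 RPM), and the same 4 between the control series (background 36.9%). Both comparisons use the GKAQ controls. For Gpr3, Wee2 and Ccnb2 the cDKO difference was opposite in sign to the difference of the GKAQ from the GKAO controls, and for Mos it had the same sign. With all 6 controls pooled, cDKO gave 0 members called, with Gpr3 at -0.38 (adjusted p = 0.408) and Wee2 at -0.19 (adjusted p = 0.361), and G9a cKO gave 2, Gpr3 at -0.66 (adjusted p = 0.0167) and Ccnb2 at 0.48 (adjusted p = 0.0257). Cdc25b passed as well in that setting (0.51, adjusted p = 0.00914). A difference between the title series that is unrelated to genotype and the effect of the deletions cannot be told apart where pooled controls are used.

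The other genes of the pathway were described through 6 lists with 94 genes, of which 77 were matched to a locus. In G9a cKO 2 of the 77 were called, both lower (background 1.79% of all loci and 5.22% of loci of at least 10 RPM), and in cDKO 18 (8 higher and 10 lower), or 23.4%, beside the background of 15.8% of loci of at least 10 RPM. Of loci of at least 10 RPM, 8.63% were called higher and 7.18% lower in cDKO, and the split over all loci shifts towards lower with other scalings. The median difference of the 77 in cDKO was 0.03, against 0.05 over those loci. Between the control series 17 of 77 were called (22.1%, background 14.8%). The plot of pathway genes shows every value.

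**Figure D3:**
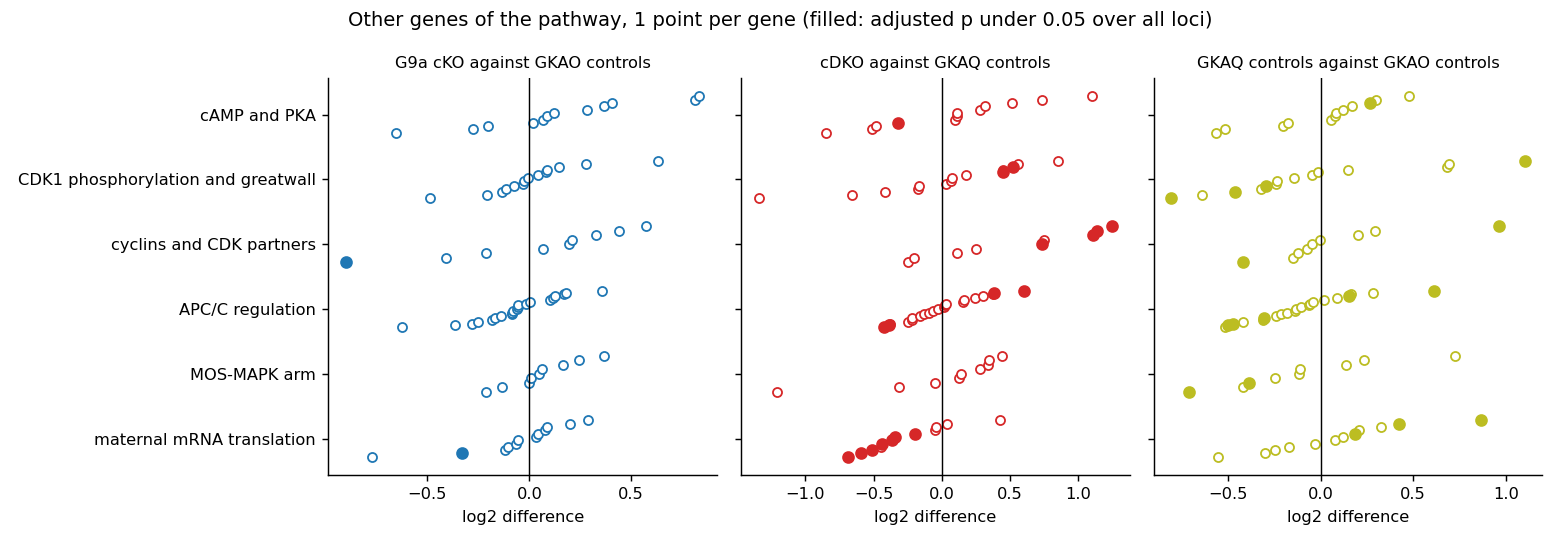
Log2 difference (horizontal axes, scale set per panel) of the 77 matched pathway genes, 1 point per gene in 6 lists, with filled points for a limma adjusted p under 0.05. In cDKO the filled points of the cyclin list lie at the right and those of the translation list at the left.

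Cyclins and their CDK partners gave 4 of 9 genes higher and 0 lower in cDKO, with a median difference of 0.73, beside the background of 8.63% called higher (all 9 are at 10 RPM or more). The count was 4 with TMM scaling or centring, 0 with title number as a term, 2 without cDKO replicate 1 and 5 without cDKO replicate 2. Ccnh, the cyclin of the kinase that activates CDKs, rose by 1.25 on the log2 scale (SE 0.20, limma adjusted p = 1.86e-07), from 37.5 to 50.01 RPM in controls to 94.3 and 108.8 RPM. Cdk2, a CDK of the S phase, rose by 1.14 (SE 0.28, adjusted p = 0.00162), and Cks2, a small subunit that binds CDKs, by 1.11 (SE 0.20, adjusted p = 7.61e-06). With title number as a term, the calls of all 3 were lost (Ccnh 0.91, adjusted p = 0.111; Cdk2 0.98 and Cks2 0.68, both adjusted p = 0.323). That of Cdk2 was also lost without cDKO replicate 1 (0.92, adjusted p = 0.129), with the pseudocount (0.0954) and with plain moderation (0.0896). In G9a cKO 1 of the 9 was called, Ccnb3, the cyclin needed for anaphase in meiosis I, which fell by 0.90 (SE 0.17, adjusted p = 5.87e-05). Its call held without each library in turn and was lost with a pseudocount of 1 RPM (adjusted p = 0.0954) or plain moderation (0.0860).

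The list on translation and turnover of maternal mRNA gave 7 of 12 genes lower and 0 higher in cDKO, with a median difference of -0.35, beside the background of 7.18% called lower (all 12 are at 10 RPM or more). The count of 7 held with TMM scaling or centring. It was 1 with title number as a term or the pseudocount, 0 with plain moderation, 3 with pooled controls or without cDKO replicate 1, and 4 with precision weights. Patl2, an RNA-binding protein that represses translation in the growing oocyte, fell by 0.69 (SE 0.18, limma adjusted p = 0.00534), from 68.5 to 76.4 RPM in controls to 43.3 and 45.6 RPM. Dazl, which promotes translation of maternal mRNA, fell by 0.59 (SE 0.14, adjusted p = 0.000692), from 184 to 186 RPM to 119 and 126 RPM. Papolg, a poly(A) polymerase, fell by 0.51 (SE 0.16, adjusted p = 0.0361). The Patl2 call was lost without cDKO replicate 2 (adjusted p = 0.0570), and that of Papolg without cDKO replicate 1 (-0.30, adjusted p = 0.694), GKAQ control replicate 2 (0.212) or GKAQ control replicate 3 (0.0948). In G9a cKO 1 of the 12 was called, Btg4, an adaptor that recruits the deadenylase to maternal mRNA, which fell by 0.33 (SE 0.07, adjusted p = 0.000976) and lost its call without GKAO control replicate 3 (0.0535) or G9a cKO replicate 2 (0.0810), with the pseudocount (0.345), with plain moderation (0.279) and with precision weights (0.212). With title number as a term the cDKO adjusted p was 0.245 for Patl2, 0.161 for Dazl and 0.323 for Papolg.

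In the other 4 lists 0 to 4 genes were called in cDKO, beside the background of 15.8% of loci of at least 10 RPM. By list these were 2 of 14, 4 of 21, 1 of 12 and 0 of 9, near or below that share. Of 14 genes of CDK1 phosphorylation and the greatwall kinase, 2 rose in cDKO: Ppp2ca, the catalytic subunit of the phosphatase that greatwall holds back, by 0.52 (SE 0.09, limma adjusted p = 2.34e-06), and Mastl, greatwall itself, by 0.45 (SE 0.09, adjusted p = 0.000145). Both were lower in the GKAQ than in the GKAO controls, by -0.81 and -0.46, and neither call held without cDKO replicate 1 (Ppp2ca 0.26, adjusted p = 0.199; Mastl 0.35, adjusted p = 0.0550) or with pooled controls. With title number as a term the values were 0.15 for Ppp2ca (adjusted p = 0.449) and 0.22 for Mastl (0.323). Arpp19, the substrate through which greatwall acts, was higher by 1.10 in the GKAQ controls (SE 0.13, adjusted p = 2.02e-14). Of 21 genes of APC/C regulation 2 rose and 2 fell in cDKO. Among them Bub1b, a spindle checkpoint kinase, fell by 0.42 (SE 0.05, adjusted p = 2.60e-14). Its call held without each library in turn and with title number as a term, and was lost with plain moderation (adjusted p = 0.230).

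Ube2c, the ubiquitin-conjugating enzyme of the APC/C, rose by 0.60 in cDKO (limma adjusted p = 0.0372) and Anapc1, a subunit, fell by 0.39 (adjusted p = 0.0311). Without cDKO replicate 1 the adjusted p was 0.187 for Ube2c, whose call was also lost with TMM scaling (0.50, adjusted p = 0.121), and 0.694 for Anapc1 (-0.19). The Ube2c call was also lost without cDKO replicate 2 (0.138), GKAQ control replicate 1 (0.137) or replicate 3 (0.0732), and that of Anapc1 without GKAQ control replicate 1 (0.122) or replicate 2 (0.117). Of 12 genes of cyclic AMP and protein kinase A signalling, 1 was called in cDKO, Akap1, an anchoring protein of the kinase, which fell by 0.32 (SE 0.09, adjusted p = 0.00680), from 523 to 566 RPM to 407 and 468 RPM. It lost its call without cDKO replicate 1 (-0.22, adjusted p = 0.300) or GKAQ control replicate 2 (0.0648), and with title number as a term (-0.28, adjusted p = 0.323). None of 9 genes of the MOS and MAPK arm was called in either mutant by limma (2 in G9a cKO and 4 in cDKO had an unadjusted p under 0.05, with no background at that level), whereas Map2k1, the kinase below MOS, was lower in the GKAQ controls (-0.71, adjusted p = 8.96e-10).

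Granulosa and cumulus markers moved with the cDKO genotype in part. Of 17 matched markers, 4 rose and 0 fell (Inha, Ptgs2, Krt8 and Fshr), beside a background of 6.34% of all loci called and 4.32% called higher, and only 2 of the 17 averaged at least 10 RPM. With TMM scaling or centring 4 rose and 1 fell, and without cDKO replicate 2 the count was 2 and 0. The 4 include Ptgs2 with 25 and 30 reads in cDKO against 1 to 2 in its controls. The 2 markers of at least 10 RPM, Cyp19a1 and Nr5a2, were not called and had lower means in both mutants. Cyp19a1 had a mean of 29.5 RPM in cDKO against 47.3, and 26.3 in G9a cKO against 41.3. Nr5a2 had 70.1 RPM in cDKO against 79.5, and 100.2 in G9a cKO against 122.4. The summed level of the list was 154 to 178 RPM in cDKO and 138 to 172 in the GKAQ controls, and 195 to 205 in the GKAO controls against 148 to 170.0 in G9a cKO. Amhr2 and Has2 were at 0 in both cDKO libraries, but had at most 1 and 3 reads in any GKAQ control. Has2 was at 0 in G9a cKO as well. Nr5a2 alone averaged 95.1 RPM. The part of these cells in the differences of Gpr3, Wee2 and the pathway genes was not tested.

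For each member called in a mutant, the loci with the most similar levels over the 11 libraries were taken from 6940 other named loci of at least 10 RPM. Gpr3 resembled Bpgm, which encodes bisphosphoglycerate mutase (Pearson r = 0.96), and Sap130, which encodes a subunit of the SIN3 corepressor (r = 0.95). Bpgm had 1736 to 1791 RPM in the GKAQ controls, 1209 and 1442 in cDKO and 1166 to 1383 in the 6 GKAO libraries. Wee2 resembled Ybx1, a cold-shock domain protein that binds RNA (r = 0.93), with 359 to 402 RPM in the GKAQ controls, 253 and 271 in cDKO and 259 to 327 in the 6 GKAO libraries, and BB557941 (r = 0.93). All 4 were selected for this likeness, so the values are a description.

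H3K9me2 over the regulators was read in 10 kb windows, with values scaled to the reads of each library, so they give its distribution along the genome and not its amount. The control libraries were deep (7048784 and 19128881 reads) and the mutant libraries shallow (1109191 to 1881848 reads), with a median of 28 and 77 reads per window against 4 to 7. Of 47 windows over the 8 members, 0 were called in G9a cKO (limma, background 1.85% of 255057 windows called) and 0 in cDKO (background 0.0% called). Before adjustment 1 window in G9a cKO and 8 in cDKO had a p under 0.05. The share of all windows at that unadjusted level is not given here, so these counts have no background. The 8 lie over Pde3a and Wee2, and those over Wee2 go both ways (log2 differences -1.93 and 1.18). At these depths a change in a single window was hard to detect.

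Pde3a, the longest member locus (27 windows, chr6:141249122-141502440, plus strand), had the lowest level in controls, 2.75 and 2.68 RPM per window, where the median window of the genome had 3.97 and 4.03 RPM. Its G9a cKO values were 3.59 and 2.90 RPM and its cDKO values 4.60 and 4.15 RPM, where the median windows were 3.23 and 3.61, and 3.48 and 3.72. Pde3a thus lay below the genome median in both controls and above it in both cDKO libraries. The cDKO mean was 1.61 times that of controls, and 25 of 27 windows were above the control mean, against 22 of 27 in G9a cKO (1.20 times). All 4 mutant libraries lay above both controls for Pde3a, as at 30.0% of the 9078 loci of at least 10 RPM that have a window. Both cDKO libraries did so at 54.4% of them, so a higher value in cDKO is not particular to Pde3a. The share of windows above the control mean at other loci is not given here. Neighbouring windows share the same libraries and are not replicates, no single window passed the test, and the RNA of Pde3a was not called in either mutant.

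Over its 2 windows the extended Mos locus exceeded its 2 control values of 2.84 and 4.03 RPM per window in every mutant library. These were 4.85 and 4.96 for G9a cKO, and 5.51 and 5.31 for cDKO. All 4 mutant libraries also lay above both controls at 30.0% of the 9078 loci of at least 10 RPM that have a window. With 10 kb added on each side, a span where the share was 32.4%, the Mos cDKO values (3.19 and 3.72) overlapped the controls (3.51 and 3.83), with the lower mean in cDKO. RefSeq Mos itself lies in only 1 of the 2 windows, chr4:3870001-3880000. There the log2 difference was -0.73 in G9a cKO, from 3 and 3 reads, and 0.59 in cDKO, from 11 and 8 reads. In the window without the RefSeq gene it was 1.22 and 0.73. Over its 3 windows Ccnb2 was at 2.98 and 4.76 for controls, 3.77 and 3.91 for G9a cKO, and 6.38 and 5.31 for cDKO. Both cDKO values lay above both controls for Gpr3, Pde3a, Wee2, Ccnb2 and Mos, as the plot of H3K9me2 by regulator shows. These are 5 of the 8 members, beside a background of 54.4% of the 9078 loci. With the flanks they were 4 of 8 (background 55.9%), namely Gpr3, Pde3a, Ccnb2 and Fbxo43, while the Wee2 groups overlapped (3.19 and 3.90 in cDKO, 3.15 and 3.25 in controls). For the members called lower in cDKO RNA, Gpr3 had 3.97 and 3.14 in controls against 4.06 and 5.49 in cDKO, and Wee2 had 3.12 and 3.18 against 3.77 and 3.59. In the window holding the annotated start site of its promoter, Wee2 had 3.97 and 3.76 RPM in controls and 4.06 and 2.13 in cDKO, from 7 and 4 reads in cDKO. In that window for Gpr3 the values were 3.55 and 2.56 against 5.80 and 6.38, from 10 and 12 reads. The measured Gpr3 locus begins upstream of that site, in the window chr4:133220001-133230000. There the log2 difference in cDKO was -0.09, from 4 and 12 reads in cDKO and 32 and 71 in controls.

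**Figure D4:**
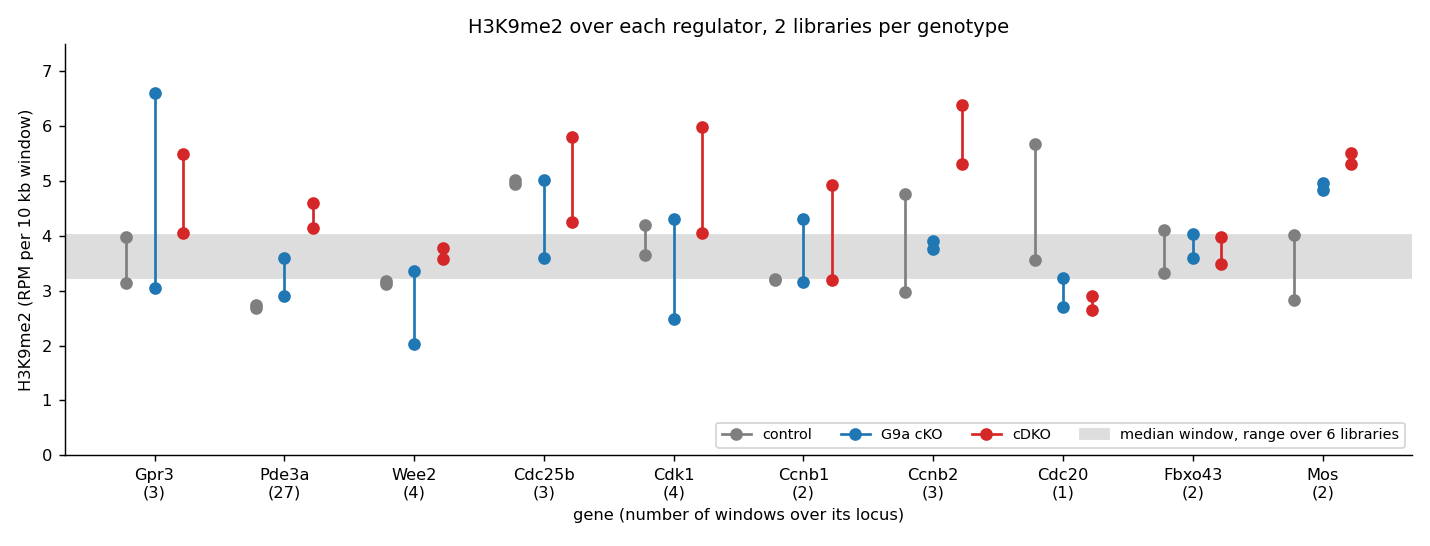
H3K9me2 in RPM per 10 kb window (vertical axis, from 0), averaged over the windows of each regulator's locus; points are libraries, 2 per genotype joined by a line, and the grey band spans the genome's median window in the 6 libraries. Pde3a lies below the band in both controls and above it in both cDKO libraries.

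**Figure D5:**
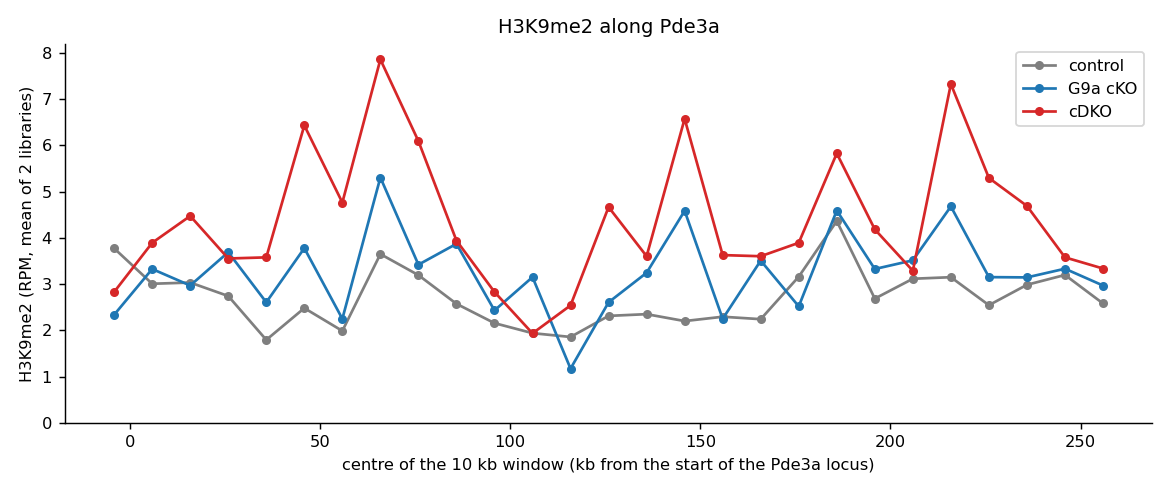
H3K9me2 along Pde3a in 27 windows of 10 kb (horizontal axis, kb from the start of the locus), as the mean RPM of 2 libraries per genotype. The cDKO line is above the control line in 25 of 27 windows, and the share at other loci is not given here.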

How the data were processed

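RNA and H3K9me2 tables were used. The submitters' processing notes name Trim Galore, Bowtie2, HISAT2 2.1.0, Bismark 0.19.0 and build GRCm38, and the way reads were counted, strand use and filters are not given in the sources used here. Both files hold log2 values as deposited by the authors, with separate columns for the libraries. The values are log2 of reads scaled to a total of 1000000 (RPM) with an empty feature set to 0.9 read, as read from the values themselves, since 100% were whole reads within a tolerance of 0.05. The H3K9me2 file has 4 columns that match no sample and were not used, while the 15 bisulphite, 6 input and 2 IgG samples were not analysed here.

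Tests used limma 3.58.1 in R 4.3.3 on the deposited log2 values, with a mean per group, moderation by trend and robust to outliers, two-sided p-values adjusted by Benjamini-Hochberg over all 38540 loci, or over the 255057 windows of 10 kb with a read in at least 1 of the 6 H3K9me2 libraries, and calls at an adjusted p under 0.05. Intervals are at 95%. The code was tested on simulated data. Tables used the R package data.table (version 1.17.8), Python 3.11.15, pandas 2.3.3 and numpy 2.4.6, and figures matplotlib 3.10.9. Named genes were all members with their locus of most reads, the 3 called genes of largest change per list and comparison, the deleted genes, and the 2 loci most like each called member. A count of 5 or fewer outside this rule is named, and was so after its values were seen. Members and lists were chosen with earlier results of these data known. Alternatives were other scalings, a pseudocount of 1 RPM, a filter at a mean of 1 RPM, plain moderation, only the groups compared, pooled controls, title number as a term, each library left out, 10 kb flanks for H3K9me2 and, chosen after the data were seen, precision weights on recovered reads. Replicate numbers in the labels are not shared between groups, so no replicate pairing was used beyond the title number.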

Additional observations from a re-analysis of the deposited data

Results flagged for a closer look

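None of the 10 regulators met a rule for a closer look. Of the 77 matched pathway genes, 5 (6.5%) had effects of the 2 deletions that differed from each other by the test of the difference (limma, adjusted over all 38540 loci). The background was 1.08% of all loci and 3.34% of loci with a mean of at least 10 RPM. The values are cDKO effect minus G9a cKO effect on the log2 scale. Bub1b, a spindle checkpoint kinase, differed by -0.37 (SE 0.07, adjusted p = 3.83e-05). Its call held without each library in turn and with title number as a term. Ccnh, a cyclin, differed by 1.05 (SE 0.27, adjusted p = 0.0187). Mastl, the greatwall kinase, differed by 0.45 (SE 0.13, adjusted p = 0.0394), Ppp2ca, a phosphatase subunit, by 0.43 (SE 0.12, adjusted p = 0.0483), and Ybx2, an RNA-binding protein of germ cells, by -0.42 (SE 0.11, adjusted p = 0.0268). Without cDKO replicate 1 the adjusted p was 0.119 for Ccnh, 0.262 for Mastl (0.35), 0.364 for Ppp2ca (0.18) and 0.104 for Ybx2. Without GKAO control replicate 3, G9a cKO replicate 2 or GKAQ control replicate 3 these 4 calls were lost as well (adjusted p from 0.0673 to 0.234), and other single libraries ended those of Mastl (G9a cKO replicates 1 and 3), Ppp2ca (GKAO control replicate 1 and G9a cKO replicate 3) and Ybx2 (GKAO control replicate 2 and G9a cKO replicate 1). With TMM scaling the differences of Mastl (0.37, adjusted p = 0.154) and Ppp2ca (0.35, adjusted p = 0.184) did not pass. With title number as a term, Ppp2ca was at 0.035 (adjusted p = 0.8998), Mastl at 0.26 (0.217), Ccnh at 0.77 (0.109) and Ybx2 at -0.32 (0.100). The calls of all 5, Bub1b included, were lost with precision weights on recovered reads (adjusted p from 0.0725 to 0.385), a pseudocount of 1 RPM (0.219 to 0.686) and plain moderation (0.232 to 0.258).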

How the results depend on the processing

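No member was called in G9a cKO except with pooled controls (2). The cDKO count of 2 members was 0 with a pseudocount of 1 RPM, plain moderation, pooled controls or title number as a term, and 0 to 2 without 1 library. With title number as a term the cDKO effect, also within the difference between the effects, comes from GKAQ55 alone, 1 control and 1 cDKO library. A call lost with that term therefore says little. Between the control series 3 members became 0 with the pseudocount or plain moderation. The difference between the effects had 0 to 1 members called without 1 library. With precision weights on recovered reads, Gpr3 and Wee2 kept their cDKO calls and Ccnb1 lost its call between the control series (2 members left).

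Of all loci, 1.79% were called in G9a cKO, against 0.0882% with the pseudocount, 0.464% with plain moderation, 3.11% with pooled controls, 1.13% with precision weights and 0.983% to 1.93% without 1 library (lowest without G9a cKO replicate 2). In cDKO 6.34% were called, against 3.00%, 2.99% and, with title number as a term, 2.52% in turn, and 4.05% to 6.42% without 1 library (lowest without cDKO replicate 1). Their split of 1665 higher and 779 lower became 1290 and 1140 when centred on loci of at least 10 RPM, and 1288 and 1159 with TMM scaling. The difference between the effects had 1.08% called (264 higher, 153 lower), against 0.265%, 0.213% and, with precision weights, 0.501%, split 210 and 251 when centred and 203 and 264 with TMM. Without 1 library it had 0.719% (GKAQ control replicate 3) to 38.2% (GKAQ control replicate 1, with 14162 higher and 543 lower). The part of loci without reads, whose value is set by depth, in that 38.2% was not tested. Between control series 3.87% were called, against 1.09% and 0.283%. With all windows kept, H3K9me2 gave 32053 calls in G9a cKO (28289 higher, 1 over the members) and 20532 in cDKO (20102 higher). That setting adds the 17101 windows without a read in any library. The value of such a window is set by depth, so it is higher in the shallow mutant libraries than in the deep controls. These counts therefore cannot be read as changes in H3K9me2. The part of the added windows in them was not tested. Plain moderation gave 0 calls in G9a cKO. Without 1 library the ranges were 0 to 13614 and 0 to 1300.

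Values near 0 turned sign. Cdk1 in G9a cKO was -0.017 when centred, -0.011 with TMM, -0.056 with title number and -0.019 with precision weights. In cDKO it was 0.14 with title number, and its difference between the effects 0.20, or 0.0065 with precision weights. Ccnb1 was 0.016 in G9a cKO with pooled controls and -0.075 in cDKO with title number, and Ehmt1 in G9a cKO was -0.056 with pooled controls. Without 1 library the range was -0.12 to 0.11 for Cdk1 in G9a cKO, -0.082 to 0.12 in cDKO and -0.12 to 0.12 for the difference; -0.0077 to 0.15 for Pde3a in G9a cKO and -0.082 to 0.079 between control series; -0.064 to 0.050 for Wee2 in G9a cKO; -0.39 to 0.31 for Cdc20 in cDKO and -0.11 to 0.59 for its difference. It was -0.15 to 0.15 for the Cdc25b difference, -0.001 to 0.27 for that of Ccnb2, and -0.065 to 0.21 for Ehmt1 in G9a cKO. The cause was not tested. The planned count tests were not run, since the deposited unit is log2. The pairing of mutant and control libraries by title number was fitted as the title number term above.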

Other observations

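The loci on the opposite strand of 2 regulators, Mos and Cdc20, are given here with no test, and were chosen after their values were seen. Of the 2 loci opposite Mos, 1 had no reads in any library, and the other had 43.9, 42.9 and 45.7 RPM in the GKAO controls, 48.0, 42.1 and 49.4 in G9a cKO, 25.1, 21.3 and 18.7 in the GKAQ controls, and 37.0 and 42.7 in cDKO. The GKAQ controls were the lowest 3 of the 11 libraries there, whereas for Mos itself they stood above every GKAO library. The locus opposite Cdc20 had 22.6, 31.4 and 27.0 RPM in the GKAO controls, 33.8, 33.9 and 30.6 in G9a cKO, 25.8, 30.0 and 26.6 in the GKAQ controls, and 37.6 and 46.8 in cDKO. Both cDKO libraries were the highest of the 11, while Cdc20 itself was highest in 1 and lowest in the other.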
